A study of Mus musculus with 9 samples.

Results

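The 76 genes described here encode proteins that write, erase or read marks on chromatin, or that move nucleosomes. They were chosen by gene name, as genes with a probe of exactly 1 platform symbol beginning Kmt, Setd, Nsd, Kat, Prmt or Dnmt (32 writers), Kdm or Hdac (16 erasers), Brd or Cbx (10 readers), and Smarc or Chd (18 remodellers), with numbered members taken as the families define them. The rule uses no measured value, but the members were chosen with earlier results of these data known. They are 76 of 7117 genes that the platform annotation names in this way, and 122 probes represent them. The role of a gene follows its name, so some members are known to act mainly outside chromatin, as Setd3 does on actin.

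Whole-testis total RNA of juvenile Spo11-/- mice was compared with that of wild-type mice on 2-colour spotted cDNA arrays, on which both RNAs compete for the same spots. Spo11 makes the DNA breaks that start meiotic recombination, and its loss stops spermatocytes in prophase. On 4 arrays the mice were 15 days old, with Spo11-/- RNA in Cy3 and wild-type RNA in Cy5. On 5 arrays the mice were 12 days old, with Spo11-/- RNA in Cy5 on replicates 1, 4 and 5 and in Cy3 on replicates 2 and 3. The animals of a pair were littermates, and no strain, Spo11 allele or pooling is stated in the labels. Replicates are numbered in order of deposit, and nothing states that each array had its own extracts, so p-values measure the spread between these arrays.

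A nucleosome carries chemical marks on its histone tails. Writers such as acetyltransferases and methyltransferases add them, deacetylases and demethylases take them off, bromodomain and chromodomain proteins bind them, and remodellers spend ATP to slide or evict the nucleosome. Male germ cells rely on this machinery: DNA is methylated anew before birth, histone methylation marks the sites of meiotic breaks, sex chromosomes are silenced in pachytene spermatocytes, and histones are replaced in spermatids.

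The values are log ratios centred on the median of each array, read as log2, and the direction of the ratio is not settled. If they are Cy5 over Cy3, a 15-day value above 0 is a gene lower in Spo11-/- than in wild type; if they were deposited as Spo11-/- over wild type, it is a gene higher in Spo11-/-. The reason for doubt is that the 15-day arrays correlated below 0 with the 12-day arrays of the same dye orientation, at r = -0.38 to -0.11 over all probes, and at r = -0.52 to -0.20 over the 122 chromatin probes. With the 12-day arrays that carry Spo11-/- RNA in Cy5, r was -0.23 to 0.03 over all probes (9 of 12 pairs below 0) and -0.33 to 0.00 over the chromatin probes (11 of 12 pairs below 0). Correlations were thus mostly below 0 with both orientations, and they do not settle the direction. These correlations run across spots of shared arrays and are descriptions. The 15-day values below therefore keep their deposited sign; the test of a mean against 0 is the same for either sign. No level can be read from a ratio, so the tissue label could not be checked against marker levels. In whole testis, fewer cells of a type and less RNA per cell cannot be told apart.

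At 15 days 74 of the 76 genes had at least 3 values and were tested, all but Kdm4a and Prmt3. Of these, 11 passed limma's test at an adjusted p under 0.05, 6 above 0 and 5 below 0. That is 14.9% of the members, against a background of 11.2% of all 6958 genes tested, of which 4.04% passed above 0 and 7.2% below 0. In this fit the share of members is near the background, so it says nothing particular about chromatin genes as a group. At an unadjusted p under 0.05, limma gave 27 of the 74 (36.5%), against 28.7% of all genes, and the difference was not tested. The median of the 74 means was 0.0021, against -0.02 for all genes. A value of 1 sign on all 4 arrays was seen for 30 of the 72 members with 4 values (41.7%), 14 above and 16 below 0, against 37.5% of all genes.

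**Figure D1:**
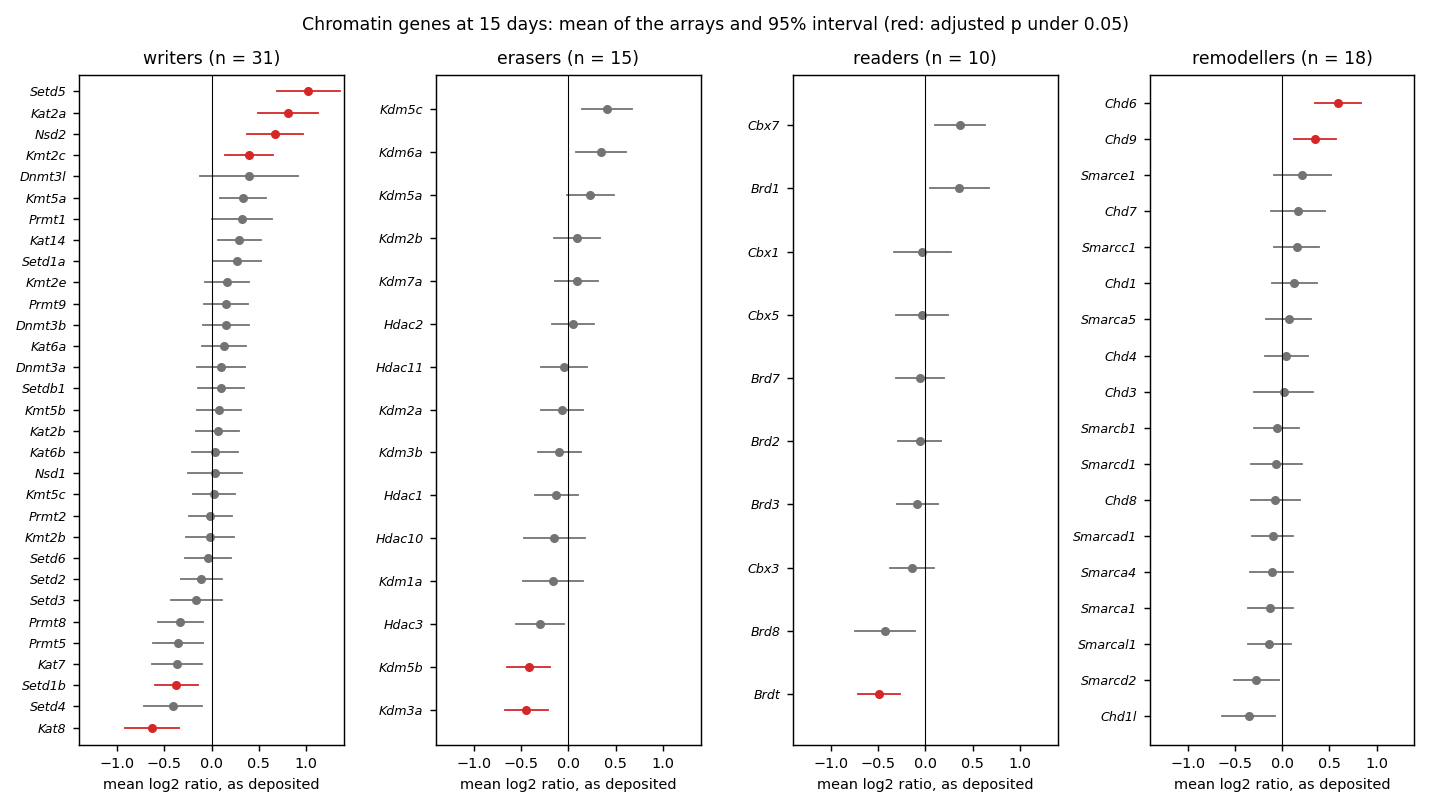
Mean 15-day log2 ratio, as deposited, of the 74 chromatin genes tested (x axis), by role and ordered by mean, with the 95% interval from limma; red marks an adjusted p under 0.05. Means run from -0.63 for Kat8 to 1.02 for Setd5, and most intervals include 0.

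Writers held the highest and the lowest mean of all members. Of 31 tested, 4 passed above 0 and 2 below, with a median of 0.08. That is 19.4% of the writers, against 11.2% of all genes, and the difference was not tested. Setd5, a SET-domain protein named as a lysine methyltransferase, was the highest member. Its single probe read 1.46, 1.10, 1.06 and 0.47 on replicates 1 to 4, all above 0, with replicate 4 the lowest. The mean was 1.02 (SE 0.15, n = 4), a 2.03-fold difference, with a 95% interval of 0.69 to 1.36 and an adjusted p of 0.0050 by limma. It passed without each array in turn (0.88 to 1.21).

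Kat2a, the catalytic acetyltransferase of the SAGA and ATAC coactivator complexes, followed. It read 0.81, 0.89, 1.21 and 0.32 on the 4 arrays, again lowest on replicate 4. The mean of 0.81 (SE 0.14, n = 4) corresponds to 1.75-fold (limma adjusted p = 0.010) and passed without each array in turn (0.67 to 0.97). Kat14, another acetyltransferase of ATAC, had 1 sign on all 4 arrays but a mean of 0.29 (adjusted p = 0.089). Kat2b, the paralog of Kat2a, lay at 0.07. The other acetyltransferases Kat6a, Kat6b and Kat7 lay at 0.13, 0.04 and -0.37, and none of them passed.

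Nsd2, a methyltransferase of histone H3, read 0.36, 1.09, 0.75 and 0.49 on the 4 arrays. Its mean of 0.67 (SE 0.13, n = 4) corresponds to 1.59-fold (limma adjusted p = 0.016). Without replicate 2 it was 0.53 (adjusted p = 0.052) and without replicate 3 it was 0.65 (adjusted p = 0.068), neither past the threshold. Its paralog Nsd1 split by array, with 0.37 and 0.22 on replicates 1 and 2 and -0.23 and -0.22 on replicates 3 and 4. Kmt2c, an MLL-family methyltransferase that acts at enhancers, read 0.49, 0.42, 0.59 and 0.10. Its mean of 0.40 (SE 0.11, n = 4) passed narrowly (limma adjusted p = 0.049). It did not pass without replicate 1 (0.37, adjusted p = 0.14), 2 (0.39, 0.13) or 3 (0.34, 0.16).

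Kat8, the acetyltransferase of histone H4 in the MSL and NSL complexes, was the lowest member. It read -0.55, -0.50, -1.07 and -0.40 on the 4 arrays, all below 0 and lowest on replicate 3. The mean was -0.63 (SE 0.13, n = 4, 1.55-fold, limma adjusted p = 0.017), or -0.48 without replicate 3 (adjusted p = 0.062). Setd1b, the catalytic subunit of a COMPASS methyltransferase complex, lay at -0.37 (SE 0.10, n = 4, limma adjusted p = 0.045), with -0.22, -0.37, -0.54 and -0.37 on the 4 arrays. It did not pass without any single array (-0.43 to -0.32, adjusted p = 0.077 to 0.15). Its partner paralog Setd1a lay on the other side, at 0.27, without passing.

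The other writers did not pass. Of 5 arginine methyltransferases tested, Prmt5, which also methylates Piwi proteins in germ cells, lay at -0.36 and Prmt8 at -0.33, each below 0 on all 4 arrays, and Prmt1 at 0.32. Prmt1 read 0.58 and 0.69 on replicates 3 and 4 but 0.07 and -0.06 on replicates 1 and 2. The de novo DNA methyltransferases Dnmt3a and Dnmt3b lay at 0.10 and 0.15. Dnmt3l, their catalytically inactive cofactor in germ cells, had the widest spread of any member tested here by standard error (0.23), with 0.17, 1.31, 0.60 and -0.50. Setdb1, a methyltransferase of heterochromatin and of the silenced sex chromosomes, lay at 0.10, and Setd2, which acts with elongating polymerase, at -0.11 with 1 sign on all 4 arrays.

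Of 15 erasers tested, 2 passed below 0 and none above, or 13.3%, near the background of 11.2%. Their means lay below 0 for 9 genes and above 0 for 6, with a median of -0.07, and over all genes 3736 of 6958 means lay below 0. Kdm3a is a demethylase of histone H3 that spermatids need to express their packaging proteins. It read -0.33, -0.51, -0.58 and -0.37, with a mean of -0.45 (SE 0.10, n = 4, 1.36-fold, limma adjusted p = 0.026). Kdm5b, a demethylase of active promoters, read -0.34, -0.54, -0.51 and -0.30, with a mean of -0.42 (SE 0.10, n = 4, limma adjusted p = 0.031). Neither passed once any single array was left out, with Kdm3a at -0.49 to -0.40 (adjusted p = 0.054 to 0.094) and Kdm5b at -0.46 to -0.38 (0.056 to 0.11).

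The Kdm5 genes lay on both sides of 0. Kdm5a, paralog of Kdm5b, lay at 0.23, and the X-linked Kdm5c at 0.41, just outside the threshold (limma adjusted p = 0.0501), beside Chd9 just inside it (0.0498). Kdm5c read 0.23, 0.69, 0.52 and 0.19, and the X-linked Kdm6a read 0.69, 0.39, 0.16 and 0.14, both above 0 on all 4 arrays. The third X-linked member, the remodeller Smarca1, lay at -0.13. Kdm3b, paralog of Kdm3a, lay at -0.10. Of 5 deacetylases none passed. Hdac3, the enzyme of the NCoR corepressors, was the lowest at -0.30, while Hdac1 and Hdac2 lay at -0.13 and 0.05.

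Readers were represented by 6 bromodomain and 4 chromobox genes, with 8 of 10 means below 0, 1 of them past the threshold, and a median of -0.06. The share past the threshold was 10%, against 11.2% of all genes, of which 3736 of 6958 means lay below 0. Brdt, the testis-specific BET protein that binds acetylated histones and is needed for meiosis and spermatid chromatin compaction, was the lowest. It read -0.47, -0.54, -0.53 and -0.41, the tightest of the 11 members past the threshold (SD 0.059). The mean was -0.49 (SE 0.10, n = 4, 1.4-fold, limma adjusted p = 0.017). Without replicate 2 it was -0.47 (adjusted p = 0.061) and without replicate 3 it was -0.48 (0.063). The broadly expressed BET genes Brd2 and Brd3 lay at -0.06 and -0.08, and neither passed. Brd8, a subunit of an acetyltransferase complex, lay at -0.43 but read from -0.82 to -0.01 and did not pass (adjusted p = 0.075). The heterochromatin protein genes Cbx1, Cbx3 and Cbx5 lay at -0.03, -0.14 and -0.04. Cbx7, a Polycomb reader, was the highest reader at 0.37 (adjusted p = 0.070), above 0 on all 4 arrays.

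Of 18 remodellers 2 passed (11.1%, against 11.2% of all genes), with a median of -0.02. Of 8 Chd genes 2 passed above 0 (25%) and none below, while none of 10 Smarc genes passed, against 11.2% of all genes. Of the Smarc means 7 lay below 0, against 3736 of 6958 over all genes. The families were not tested against each other. Chd6 read 0.40, 0.78, 0.70 and 0.47, with a mean of 0.59 (SE 0.11, n = 4, 1.50-fold, limma adjusted p = 0.013). Without replicate 2 it was 0.52 (adjusted p = 0.051) and without replicate 3 it was 0.55 (0.059). Its close relative Chd9 read 0.42, 0.41, 0.35 and 0.22, with a mean of 0.35 (SE 0.10, n = 4, limma adjusted p = 0.050), and passed in none of the fits with an array left out (0.32 to 0.39, adjusted p = 0.078 to 0.15). The lowest remodeller was Chd1l, at -0.36. Chd3 and Chd4, the ATPases of the NuRD complex, lay at 0.02 and 0.05. Smarca4 and Smarca5, the ATPases of SWI/SNF and ISWI complexes, lay at -0.11 and 0.07, and the SWI/SNF subunits Smarcb1, Smarcc1, Smarcd1, Smarcd2 and Smarce1 between -0.27 and 0.22.

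The members not yet named did not pass either. Among writers, Kmt5a, which monomethylates histone H4, was above 0 on all 4 arrays at 0.34 (limma adjusted p = 0.071), and Setd4, with 3 values, lay at -0.41 (adjusted p = 0.081). Kmt2b, Kmt2e, Kmt5b, Kmt5c, Setd3, Setd6, Prmt2 and Prmt9 lay between -0.16 for Setd3 and 0.16 for Kmt2e. Among erasers, Kdm1a, the demethylase of the CoREST complex, read -0.31, -0.42, -0.31 and 0.38, with replicate 4 on the other side of 0. Kdm2a, Kdm2b, Kdm7a, Hdac10 and Hdac11 lay between -0.15 for Hdac10 and 0.09 for Kdm2b. The reader Brd7 lay at -0.06. The remodellers Chd1, Chd7, Chd8, Smarcad1 and Smarcal1 lay between -0.14 for Smarcal1 and 0.17 for Chd7.

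**Figure D2:**
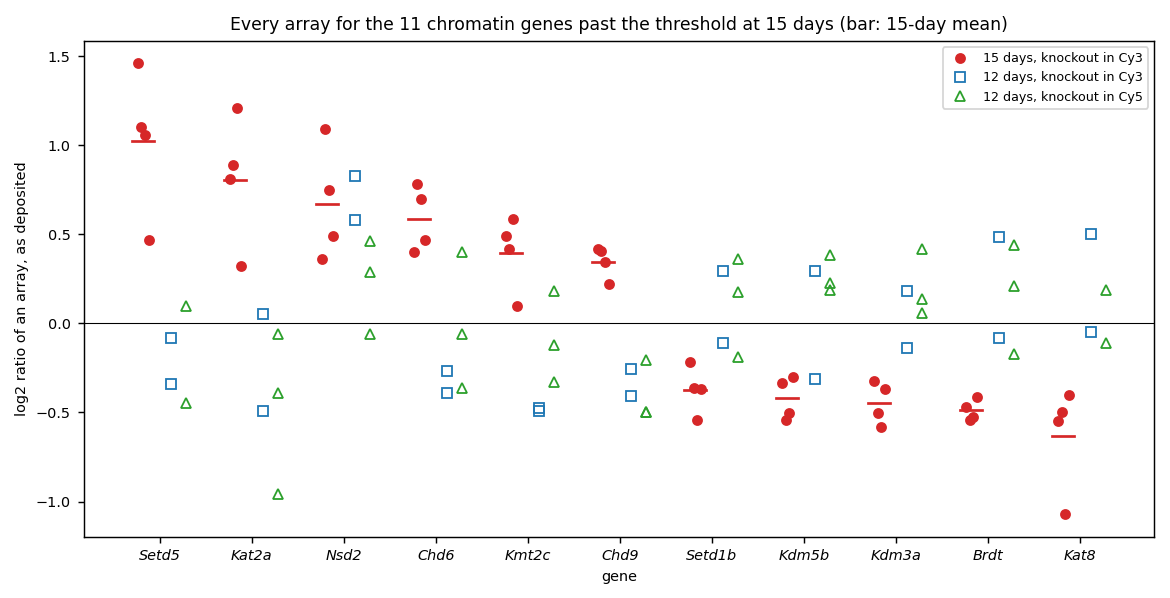
Log2 ratio on each array, as deposited (y axis), for the 11 chromatin genes past the threshold at 15 days; filled circles are the 4 arrays of 15 days with their mean as a bar, open squares and triangles the 12-day arrays with Spo11-/- RNA in Cy3 and in Cy5. For Chd9 the 12-day arrays of both dyes lie between -0.50 and -0.21, opposite to the 15-day arrays, whereas Nsd2 is above 0 on all 4 arrays of 15 days and on 4 of 5 arrays of 12 days.

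Promoter sequence is shown for 3 of the 5 members that passed below 0 at 15 days. Setd1b is not shown, nor is Kdm3a, the lowest eraser, with its annotated starts on the minus strand. The 3 sequences are of the lowest writer (Kat8), the lowest reader (Brdt) and the eraser Kdm5b. Each is the stretch of 250 bases before an annotated transcript start on the plus strand, from RefSeq on GRCm38.p6, at chr7:127912267-127912516 for Kat8, chr5:107330944-107331193 for Brdt and chr1:134559928-134560177 for Kdm5b. Capitals mark matches, on either strand, to the GC box GGGCGG, the CCAAT box, the E box CACGTG, the cyclic AMP response element TGACGTCA and the TATA box TATAAA.
Kat8: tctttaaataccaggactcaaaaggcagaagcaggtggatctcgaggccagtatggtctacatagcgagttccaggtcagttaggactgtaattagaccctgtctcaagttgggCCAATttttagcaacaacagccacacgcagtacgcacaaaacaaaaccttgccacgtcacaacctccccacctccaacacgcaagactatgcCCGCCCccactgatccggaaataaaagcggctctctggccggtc
Brdt: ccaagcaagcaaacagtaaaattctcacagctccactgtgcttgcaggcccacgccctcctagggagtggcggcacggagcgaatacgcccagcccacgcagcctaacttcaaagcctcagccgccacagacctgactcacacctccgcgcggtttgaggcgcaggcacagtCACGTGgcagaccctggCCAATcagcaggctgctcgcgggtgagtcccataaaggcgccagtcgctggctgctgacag
Kdm5b: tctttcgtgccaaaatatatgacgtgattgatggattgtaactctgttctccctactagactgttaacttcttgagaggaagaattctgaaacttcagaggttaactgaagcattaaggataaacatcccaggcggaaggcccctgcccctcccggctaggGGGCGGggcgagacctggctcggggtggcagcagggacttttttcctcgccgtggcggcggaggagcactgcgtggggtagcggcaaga
The Kat8 window held 1 CCAAT and 1 GC box, that of Brdt 1 CCAAT and 1 E box, and that of Kdm5b 1 GC box. Among all 32851 windows of that length in the RefSeq table, 33.8% held CCAAT, 32.7% a GC box and 6.02% an E box, while 1.55% held the cyclic AMP response element and 12.4% TATAAA, which were in none of the 3. The windows held 10, 16 and 13 CG dinucleotides in Kat8, Brdt and Kdm5b, against a median of 6. The window of another annotated Kat8 start held 5. A match is a description of letters only. The series names no genome build, so these positions come from RefSeq and not from the arrays.

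Probes of 1 gene often disagreed. Of 31 members with at least 2 tested probes, 17 had probe means of both signs at 15 days, and 11 had probes more than 0.5 apart on the log2 scale, with a median range of 0.33. Cbx7 had a probe at 0.76, with 1.07, 0.83, 0.66 and 0.47 on the 4 arrays, and another at -0.03. For Setd1b the probes lay at -0.68 and -0.07, for Chd9 at 0.64 and 0.05, and for Kdm3a at -0.70 and -0.20. Each of these 3 genes thus passed on the mean of a probe well away from 0 and another much closer to it. Brdt had probes at -0.69, -0.67 and -0.10, whereas the probes of Kmt2c (0.49 and 0.31) and of Kdm5b (-0.54 and -0.30) lay closer together. The widest range was that of the reader Brd1, at 1.07 and -0.06. The probe at 1.07 had values on replicates 2, 3 and 4 only, so the other probe alone gave the gene's value on replicate 1, and the mean of the gene did not pass (0.36, adjusted p = 0.12). Other members that did not pass also averaged probes of both signs. Among them were Kat14 (0.60, 0.34 and -0.07), Kdm5a (0.61, 0.15 and -0.06), Kdm6a (0.63, 0.50 and -0.10) and Dnmt3a (0.395 and -0.19). Setd5, Kat2a, Nsd2, Kat8 and Chd6 have 1 probe each, so no second probe bears on them. Which part of a transcript each probe covers was not analysed here.

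**Figure D3:**
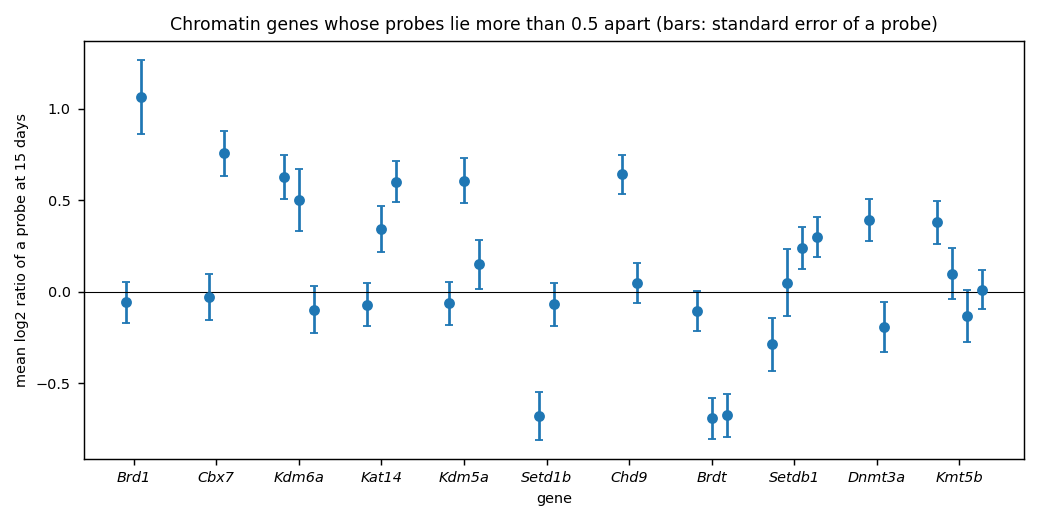
Mean 15-day log2 ratio of each probe (y axis, bars show the standard error from limma) for the 11 chromatin genes whose probes lie more than 0.5 apart, ordered by range. Brd1 (1.07 and -0.06) and Cbx7 (0.76 and -0.03) each pair a probe far above 0 with one at 0.

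Partners of these enzymes were taken from lists of complex subunits. The lists also hold writers and erasers whose names the rule does not match, such as Ezh2 and Crebbp, or Sirt1 and Tet2. All are called partners here. Of 34 writer partners 1 passed above 0 and 2 below at 15 days, of 23 eraser partners 2 below, of 30 readers and histone chaperones 2 below, and of 26 remodeller partners 2 below, with none above in the last 3 lists. Their medians lay between -0.10 and -0.02, against -0.02 for all genes, and 8.82%, 8.70%, 6.67% and 7.69% passed, against the background of 11.2%. Of 8 histone genes 1 passed below 0 and 1 above, or 25%, against 11.2% of all genes. H3f3b, which encodes a replacement histone, passed below 0 at -0.56 (SE 0.12). The oocyte linker histone gene H1f8 passed above 0 at 0.40 (SE 0.10). With the trend in spot order removed, H1f8 was 0.16 and did not pass (adjusted p = 0.20).

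Arid2, a subunit of the PBAF form of SWI/SNF, had the lowest mean of the partners. It read -0.80, -0.93, -1.14 and -0.47, with a mean of -0.83 (SE 0.12, n = 4, limma adjusted p = 0.0057), and passed without each array in turn (-0.96 to -0.73). Arid1a and Arid1b, which define the BAF form, lay at -0.01 and 0.16, and Pbrm1, also of PBAF, at -0.14. None of these 3 passed. In the NuRD complex Mbd3 lay at -0.56 and Mta2 at -0.45, both past the threshold. Rbbp4 at -0.32, Gatad2b at 0.36, Gatad2a at -0.09, Mta3 at -0.06 and Rbbp7 at 0.06 did not pass. The member ATPases lay near 0, and the deacetylases Hdac1 and Hdac2 at -0.13 and 0.05. In Polycomb complex PRC2 the enzyme gene Ezh2 passed at -0.37 while Eed and Suz12 lay at 0.10 and 0.07. Pcgf1 (-0.53), of a PRC1 complex, the corepressor Trim28 (-0.52), the chromatin assembly subunit Chaf1a (-0.59) and Dmap1 (-0.45) also passed below 0, and the ubiquitin-conjugating enzyme gene Ube2a above 0 (0.52). Mta2, Ezh2, Dmap1, Ube2a and H1f8 passed in none of the fits with 1 array left out, Mbd3, Trim28 and H3f3b in 1 of 4, and Pcgf1 and Chaf1a in 2 of 4.

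Markers of germ cell stages were read on the same arrays, and their relation to the chromatin values was not computed. The lists were chosen with earlier results of these data known, so their counts are descriptions. Of 6 markers of pachytene spermatocytes, 5 passed below 0 at 15 days (83.3%) and none above. Over all genes 7.2% passed below 0 and 4.04% above. The median of the pachytene list ran from -1.60 to -0.76 over the 4 arrays. Of 9 spermatogonial markers 3 passed above 0 (33.3%) and none below, with medians of 0.19 to 0.41. Of 8 Sertoli cell markers none passed, of 6 Leydig cell markers 1 above 0, of 7 peritubular and fibroblast markers 1 each way, and of 5 macrophage, endothelial and blood markers 1 each way. The part of these cell types in the chromatin values was not tested.

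The 12-day arrays were fitted with a coefficient for Spo11-/- over wild type, its sign that of a Cy5 over Cy3 ratio, and an intercept for the dye. None of 69 members tested passed, as did 0% of all 6237 genes. By limma 2 of the 69 members had an unadjusted p under 0.05, and 120 of 6237 genes (1.92%). That share of genes is smaller than evenly spread p-values would give. The lack of calls at 12 days therefore does not show a lack of effects. The coefficients ran from -0.24 to 0.20. The members of smallest p were the SWI/SNF subunit gene Smarcd1 (-0.19, SE 0.08), Chd7, a remodeller of developmental enhancers (-0.20, SE 0.08), Nsd2 (-0.24, SE 0.11), Kmt2c (0.20, SE 0.10) and Brd1 (0.15, SE 0.08), each with a limma adjusted p of 1.00. After turning by dye, Smarcd1 and Chd7 were below 0 and Brd1 above 0 on all 5 arrays, the only ones of 66 members with 5 values (4.55%, against 4.61% of all genes).

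As deposited, 12-day values kept their sign across dyes more often than after turning. A single sign on all 5 arrays was seen for 12 of the 66 members (18.2%), 7 above and 5 below 0, against 12.9% of all genes. Chd9 was among them, with -0.50, -0.41, -0.26, -0.50 and -0.21 on replicates 1 to 5, and so was Cbx7, with -0.68, -0.50, -0.13, -0.50 and -0.12. Each of these means takes its sign from 1 of 2 probes. The other Cbx7 probe was above 0 on all 5 arrays (0.22, 0.10, 0.09, 0.01 and 0.285). The other Chd9 probe had both signs (0.17, 0.10, -0.09, 0.01 and -0.092). Kat7 read 0.32, 0.05, 0.52, 0.33 and 0.54, and Prmt5 0.21, 0.24, 0.35, 0.09 and 0.24. These 4 genes had the opposite sign on all 4 arrays of 15 days, as did Brd8, Setd2 and Smarcd2 among the 12. Kat2b, Kat6b, Kdm1a, Kmt2b and Kmt5b had both signs at 15 days. The share of all genes with such a reversal was not counted. Over the chromatin probes, r between 12-day arrays was 0.23 to 0.49 for pairs with the dyes exchanged and 0.03 to 0.58 for pairs with the dyes alike. Over all probes r was 0.00 to 0.29 and -0.13 to 0.45.

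The 12-day dye intercept, the part of a ratio that does not follow the genotype under the Cy5 over Cy3 reading, ran against the 15-day means. Over 68 members r was -0.46 (Spearman's rho -0.57), compared with -0.33 (-0.29) over 6144 genes. For the 12-day Spo11-/- over wild-type coefficient, r with the 15-day means was 0.01 (0.07) over the members and 0.25 (0.27) over all genes. A positive r means effects of opposite sign at 12 and 15 days if all ratios are Cy5 over Cy3. If the 15-day ratios are Spo11-/- over wild type, it means effects of like sign. The points share spots, print order and base composition, and the values are descriptions. Of the 11 members past the threshold, 10 had an intercept of the opposite sign to their 15-day mean, from -0.37 for Chd9 to 0.18 for Brdt. Nsd2 was the exception, with an intercept of 0.47 beside a 15-day mean of 0.67. At 12 days it read 0.46, 0.58, 0.83, 0.29 and -0.06 on replicates 1 to 5, so the sign did not follow the dye. The part of dye effects in the 15-day values was not tested, as those arrays have 1 orientation.

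**Figure D4:**
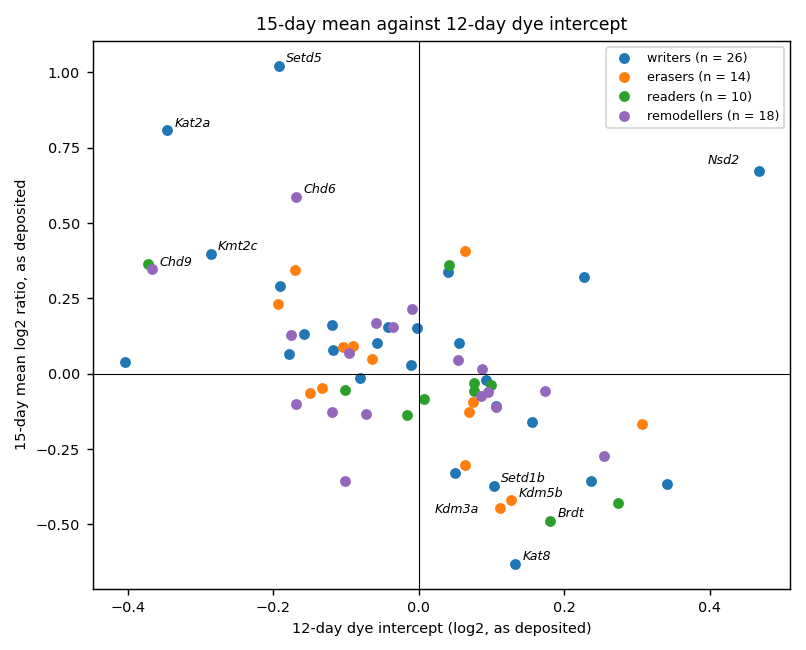
Mean 15-day log2 ratio as deposited (y axis) against the dye intercept of the 12-day model (x axis, log2) for 68 chromatin genes, coloured by role; names mark the genes past the threshold at 15 days. Points run from upper left to lower right (r = -0.46), and Nsd2 lies apart at 0.47 and 0.67.

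When both ages were fitted together with 1 dye term, 13 of 68 members (19.1%) passed at 15 days if ratios were read as Cy5 over Cy3, against 7.81% of all genes, and 9 of the 13 were among the 11. With the 15-day sign turned 1 passed (1.47%), against 0.163% of all genes. These shares are counts from 1 fit each, and their differences were not tested. Under the first reading Nsd2 no longer passed (0.21, adjusted p = 0.49), nor did Setd1b (-0.48, adjusted p = 0.081). With the sign turned Nsd2 alone passed, at 1.14 (limma adjusted p = 0.047), and Setd5 and Kat2a lay at 0.83 and 0.46 (limma adjusted p = 0.16 and 0.37). In this fit those 9 of the 11 members that passed under the first reading did not pass under the second, and Nsd2 passed under the second reading only.

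Whether the effect differed between 15 and 12 days was tested on 68 members in 1 model, in which 12-day replicates 2 and 3 alone set the contrast with the 15-day arrays. Under the Cy5 over Cy3 reading 2 members passed (2.94%), against a background of 2.41% of all genes (1.69% above 0 and 0.716% below). Both had a lower Spo11-/- over wild-type ratio at 15 days. Setd5 differed by -1.23 (SE 0.27, limma adjusted p = 0.046) and Kmt2c by -0.88 (SE 0.19, adjusted p = 0.043). An unadjusted p under 0.05 was given by limma for 19 of the 68 members, and for 1184 of 6144 genes (19.3%). Both calls were lost without any of 15-day replicates 1, 2 and 3 or 12-day replicates 2, 3 and 4, with values of -1.36 to -1.09 and -0.89 to -0.82. With the 15-day sign turned no member passed, as did 0% of genes. By limma 5 of the 68 members then had an unadjusted p under 0.05, and 369 of 6144 genes (6.01%). The difference for Setd5 was then 0.81 (adjusted p = 0.74), Kmt2c lay at -0.09, and Nsd2 at 1.38 (SE 0.23, adjusted p = 0.21).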

How the data were processed

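The deposited values were log ratios of the 2 channels of an array, read as log2. Per the series' design text, the authors used a GenePix 4000A scanner and GenePix 3.0 software, applied its default flags, and centred each array on its median, and every column had a median of 0. The log base, background correction and direction are not stated there. Arrays held values for 11628 to 14724 of 16128 probes; precision is limited by how many arrays there are. The platform annotation gave 1 gene for 9604 probes, several for 213 and none for 6311. RefSeq held the Entrez ID of 98.9% of the probes with 1 gene, and gave every member the same symbol. Probes of 1 gene were averaged, and 4 probes of several genes that hold a member's name were left out.

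The test was limma 3.58.1 under R 4.3.3 on the log2 ratios (lmFit, eBayes, two-sided, Benjamini-Hochberg over all features, adjusted p under 0.05). The 15-day mean was tested against 0 with at least 3 values, and the 12-day knockout coefficient with a dye intercept, at least 4 values and both orientations. The age difference came from all 9 arrays, fitted together with 1 dye term for both ages. With an array left out, 1 value may be missing of those that remain. Every member past the threshold, Setd5, Nsd2, the 5 members of smallest p at 12 days, the extremes of each role and up to 6 passing genes of each partner list are named, and further members are given to describe their families. The members and lists were chosen with earlier results of these data known. Alternatives covered missing values, single probes, scaling, spot order, robust empirical Bayes, a stricter threshold, dye terms, direction, the number range in array titles and each array left out.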

Additional observations from a re-analysis of the deposited data

Results flagged for a closer look

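In 28 sets of 4 or 5 arrays a value far from the rest was looked for, of which chance would give about 1 in 20. The sets came from 14 members, those past the threshold at 15 days and the 5 of smallest p at 12 days. Other members, also those whose arrays are given above, were not examined in this way. One was found: Kdm5b on 12-day replicate 2, at -0.315 as deposited, against 0.185 to 0.384 on the other 12-day arrays. The difference between 15 and 12 days passed for Setd5 (-1.23) and Kmt2c (-0.88) under the Cy5 over Cy3 reading, and for neither with the 15-day sign turned (0.81 and -0.09).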

How the results depend on the processing

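The number of chromatin genes past the threshold at 15 days (11, or 14.9% of members against 11.2% of all genes) was 12 with complete values, scaled arrays or robust empirical Bayes. It was 13 when both ages were fitted together with a dye term, ratios read as Cy5 over Cy3 (19.1% against 7.81%), and 1 (Nsd2) with the sign turned in that fit (1.47% against 0.163%). It was 18 with single probes, where a gene counts by its probe of smallest p (24.3% against 15.1%), 17 with the trend in spot order removed (23% against 15.4%), 1 (Setd5) at an adjusted p under 0.01 with 1.5-fold (1.35% against 1.85%), and 2 to 9 with an array left out (2.7% to 12.2% against 2.66% to 7.27%). With single probes, a gene with more probes has more chances to pass. Members had 122 probes for 76 genes, against 9604 probes for 7117 genes, and the part of this in the shares was not tested. In the joint fit with the sign turned Chd9 changed sign, to -0.0203. The count of the age difference (2, or 2.94% against 2.41% of all genes) was 3 with complete values (4.69% against 3.23%), 8 with single probes (11.8% against 3.31%), 4 with scaled arrays (5.88% against 5.6%), 9 with the trend removed (13.2% against 5.13%), 0 at the stricter threshold (0.0326% of all genes) and with the sign turned (0%), and 0 to 4 with an array left out (0.0325% to 4.45% of all genes). The differences between these shares were not tested. Setd5 was 0.81 with the sign turned. At 12 days the count stayed at 0 under all 14 alternatives, with 0 to 9 members at an unadjusted limma p under 0.05, the 9 from values not turned by dye. The causes were not tested. No paired analysis was possible because the labels number no replicates to match across the ages; within an array the ratio itself already pairs both genotypes. Alternatives for the partner genes were added after seeing the data. Array signal over background is unknown, so dim spots could not be told apart.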
